A study of Mus musculus with 30 samples.

Results

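The proteasome genes were taken as every entry whose symbol begins with Psma to Psmg and a number, together with Pomp, in gene expression tables of mouse lung and spleen. The gene group was chosen with earlier results of these data known. The rule for its entries went by gene name alone and used no measured value. It found 50 of 19470 entries in lung and the same number of 18845 entries in spleen. Of these, 31 encode constitutive subunits of the 20S core or the 19S cap, 5 encode the interferon-inducible subunits Psmb8, Psmb9, Psmb10, Psme1 and Psme2, and 9 encode assembly factors or inhibitors. Psme3 and Psme4 are further activators, Psma8 is a testis subunit, Psme2b is a near-copy of Psme2, and Psmc3ip matches the naming rule although it encodes a recombination factor and no subunit.

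Messenger RNA had been sequenced from lungs and spleens of C57BL/6 mice aged 8 weeks, of 3 genotypes: a line labelled lincRNA-Cox2 Mutant, a line labelled lincRNA-Cox2 knockout, and wild type. The locus of lincRNA-Cox2, which encodes a long noncoding RNA, neighbours Ptgs2 (cyclooxygenase 2). Mice had received lipopolysaccharide (LPS, a bacterial cell wall component sensed by Toll-like receptors) intraperitoneally at 20 mg/kg, with collection 6 h later, or PBS. Each tissue had 3 LPS and 2 PBS libraries per genotype, 30 libraries in all. The labels do not say whether replicates were separate animals, so the deposited p-values measure the spread between these libraries, which may be technical. Only the authors' group means were available, so each value below is the authors' mean normalised read count of a group, without a spread between libraries.

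The proteasome is the barrel-shaped protease that degrades ubiquitin-tagged proteins. Its 20S core stacks rings of alpha and beta subunits, of which Psmb5, Psmb6 and Psmb7 carry the catalytic sites, and the 19S cap recognises and unfolds substrates with its Psmc ATPases and Psmd subunits. Under interferon gamma, cells exchange the catalytic subunits for Psmb8, Psmb9 and Psmb10, giving the immunoproteasome, and add the PA28 activator built from Psme1 and Psme2; these forms are known for producing peptides that MHC class I presents to T cells. Immune cells of the spleen hold immunoproteasomes without infection.

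The inducible genes sit in 2 clusters and 1 separate locus (GENCODE M21 positions on GRCm38). Psmb8 lies on chromosome 17 from 34197721 to 34201454 on the plus strand, beside Psmb9 from 34181987 to 34187764 on the minus strand, within the MHC region. Psme1 lies on chromosome 14 from 55578123 to 55581529 on the plus strand, beside Psme2 from 55587441 to 55591113 on the minus strand. Psmb10 lies on chromosome 8 from 105935735 to 105938444 on the minus strand. Start-site windows of 300 bases, 250 before the start and 50 after it, were read for GRCm38.p6 at the most upstream RefSeq start of each gene. Of the 50 members, 42 had one. The GENCODE spans of Psmb8, Psmb9 and Psme1 reach further upstream than these RefSeq starts, so their whole windows lie within the spans given above. Of 27025 windows in all, 3.49% held an interferon-stimulated response element (ISRE, searched as GAAA, any 2 bases, GAAA), 8.42% an interferon gamma-activated site (GAS, TTCNNNGAA), 7% a GAS form with a spacer of 4 bases (TTC, any 4 bases, GAA), 12.4% an antioxidant response element core (ARE, TGACNNNGC) of the kind that Nfe2l1 binds, 0.389% an NF-kB site (GGGA, any base, TTTCC) and 38% a CCAAT box, each on either strand and with no overlap between the matches shown. The windows of 5 members are printed below, chosen because Psmb8, Psmb10 and Psme1 hold a match to an interferon-type motif, Psmb9 shares its promoter with Tap1, and Psmb5 is the constitutive counterpart of Psmb8. Capitals mark the match.
Psmb8, chr17:34197945-34198244, plus strand, GAS starting 97 bases before the start: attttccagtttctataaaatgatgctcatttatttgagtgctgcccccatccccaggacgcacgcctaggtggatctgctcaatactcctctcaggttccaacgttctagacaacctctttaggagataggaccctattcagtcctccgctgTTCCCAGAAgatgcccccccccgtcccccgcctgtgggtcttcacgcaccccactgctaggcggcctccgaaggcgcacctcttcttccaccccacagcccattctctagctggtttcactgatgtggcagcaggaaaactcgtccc
Psmb10, chr8:105938343-105938642, minus strand, GAS form with the 4-base spacer starting 67 bases before the start: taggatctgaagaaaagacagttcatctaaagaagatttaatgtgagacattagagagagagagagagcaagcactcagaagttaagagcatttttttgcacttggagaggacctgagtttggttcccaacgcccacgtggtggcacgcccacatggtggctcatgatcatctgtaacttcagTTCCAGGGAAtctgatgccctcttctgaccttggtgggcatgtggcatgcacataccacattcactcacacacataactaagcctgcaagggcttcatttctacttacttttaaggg
Psme1, chr14:55578244-55578543, plus strand, ISRE on the opposite strand starting 9 bases after the start: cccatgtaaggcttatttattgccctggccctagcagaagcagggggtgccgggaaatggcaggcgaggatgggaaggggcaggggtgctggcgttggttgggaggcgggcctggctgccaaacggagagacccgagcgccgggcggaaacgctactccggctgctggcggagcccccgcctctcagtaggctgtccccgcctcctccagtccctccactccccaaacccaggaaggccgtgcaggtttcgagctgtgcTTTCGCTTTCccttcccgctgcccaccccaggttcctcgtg
Psmb9, chr17:34187281-34187580, minus strand, CCAAT box on the opposite strand starting 8 bases before the start: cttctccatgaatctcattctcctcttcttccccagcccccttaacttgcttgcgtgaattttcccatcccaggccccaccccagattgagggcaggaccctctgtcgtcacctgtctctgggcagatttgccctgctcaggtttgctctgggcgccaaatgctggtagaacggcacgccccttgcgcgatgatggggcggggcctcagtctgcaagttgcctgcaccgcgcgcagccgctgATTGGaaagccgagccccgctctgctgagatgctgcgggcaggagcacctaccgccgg
Psmb5, chr14:54617946-54618245, minus strand, ARE core starting 47 bases before the start: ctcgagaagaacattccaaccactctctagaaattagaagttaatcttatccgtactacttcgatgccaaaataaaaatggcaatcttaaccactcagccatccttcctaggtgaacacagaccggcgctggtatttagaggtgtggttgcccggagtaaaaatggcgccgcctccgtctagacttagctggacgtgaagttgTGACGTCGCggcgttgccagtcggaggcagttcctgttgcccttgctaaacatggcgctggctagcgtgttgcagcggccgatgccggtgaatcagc
The Psmb9 window runs into that of Tap1, the peptide transporter gene: the RefSeq starts of the pair lie 226 bases apart on opposite strands and their windows share 275 bases. Psmb6, the counterpart of Psmb9, held an ARE core 9 bases before its start, and none of these motifs was found in the Psme2 window. Among the 25 constitutive subunits with a window, 2 held an ISRE (Psmb3 and Psmd4), 1 a GAS (Psmd2) and 4 an ARE core. Of the remaining members, Psmg4 and Psmd9 held an ISRE, Psmg1 a GAS, and Psmd9 and Psme4 an ARE core. A match to these letters shows no binding, and a missing match says only that the letters are not in the window.

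LincRNA-Cox2, the altered gene, was listed at 0 in mutant and knockout LPS lungs and at 30.2 in wild type LPS lungs, and at 0 in mutant and knockout PBS lungs, against 34.8 in wild type PBS lungs. In spleen it was listed at 0, 0.322 and 3.53 in mutant, knockout and wild type LPS groups, and at 0, 0 and 2.13 in the PBS groups. Library totals estimated from the step that 1 read adds to low values were 5.20 to 17.3 M reads in lung and 2.38 to 8.95 M in spleen; 1 spleen group, mutant LPS, could not be resolved. Sex-linked transcripts were not balanced over the groups: Xist averaged 4510 in mutant LPS lungs but 23.2 in knockout and 14.5 in wild type LPS lungs, against 1910 to 3660 in the PBS lungs. The Y-linked Ddx3y ran the other way, at 4.73, 1130 and 1150 in the mutant, knockout and wild type LPS lungs and 294 to 447 in the PBS lungs. In spleen Xist averaged 4670, 33.7 and 31.3 in mutant, knockout and wild type LPS groups, against 2470 to 4040 in the PBS groups. Ddx3y there was at 14.0, 601 and 705 under LPS and 198 to 234 under PBS. Every PBS group was thus high in both Xist and Ddx3y, while each LPS group was high in only 1 of them. A single mouse would not give both, so each PBS group held RNA of more than 1 mouse. Whether its libraries were pools is not labelled. Within a genotype, treatment and sex balance therefore cannot be told apart, and neither can genotype and sex where mutant LPS groups are compared with knockout or wild type LPS groups. The LPS groups had more Xist than the PBS groups in mutant and far less in knockout and wild type. The liver transcript Alb also differed between lung groups, at 462, 2460 and 242 under LPS and 9.08, 110 and 370 under PBS for mutant, knockout and wild type. In spleen Alb was at 1570, 2220 and 121 under LPS and 8.27, 97.1 and 855 under PBS, so in both tissues it was higher with LPS in the lines and lower with LPS in wild type. Lung epithelial markers were also read in spleen, with Sftpc at 558, 464 and 338 under LPS and 289, 160 and 287 under PBS. The part of sex, liver or lung transcripts in the sizes of the proteasome ratios was not tested. In these bulk tissues fewer cells of a type and less RNA per cell cannot be told apart either.

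All 5 inducible subunits were higher in LPS than in PBS lungs of every genotype. The log2 ratio of LPS over PBS means, taken with a pseudocount of 1, was 1.73 to 2.40 in mutant, 1.87 to 2.59 in knockout and 1.14 to 1.69 in wild type lungs. Counting error alone gave standard errors of 0.029 to 0.063 on these ratios; the spread between mice could not be measured, so none of them was tested. The median ratio over all genes with a mean of at least 10 lay between -0.03 and -0.01 in the 3 genotypes.

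Psmb8, the inducible chymotrypsin-like catalytic subunit, averaged 2940, 3230 and 2700 in LPS lungs of mutant, knockout and wild type mice, against 557, 536 and 837 in their PBS lungs. The LPS groups lay close together, and among the PBS groups wild type stood above both lines. These means gave ratios of 5.27-fold in mutant, 6.02-fold in knockout and 3.22-fold in wild type lungs. Psmb10, the inducible trypsin-like subunit, averaged 2100, 1930 and 1600 in the same LPS groups and 423, 409 and 655 in the PBS groups. Its order over the PBS groups was that of Psmb8, with wild type highest, and its ratio was 2.31, 2.24 and 1.29 on the log2 scale. Psmb9, which replaces the caspase-like Psmb6 and whose promoter adjoins Tap1, was the least abundant of the 5 per kilobase of exon under LPS. It averaged 928, 1000 and 970 in LPS lungs and 280, 272 and 329 in PBS lungs, and its log2 ratio of 1.73, 1.87 and 1.56 varied least between the genotypes.

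Psme1 and Psme2, the alpha and beta chains of PA28, were the most abundant members per kilobase of exon in LPS lungs. Psme2 had 3870, 3990 and 3390 normalised counts per kilobase in mutant, knockout and wild type LPS lungs, and Psme1 had 3530, 4520 and 3060; the next member, Psmb8, had 1810, 1980 and 1660. As plain means, Psme1 was 3920, 5030 and 3400 in LPS lungs and 1120, 1040 and 1540 in PBS lungs. Psme2 was 3780, 3890 and 3310 in LPS lungs and 722, 658 and 1120 in PBS lungs. For both chains the PBS means were highest in wild type and the LPS means lowest in wild type, so the wild type log2 ratio was the smallest, at 1.14 for Psme1 and 1.56 for Psme2. Psme2b, on chromosome 11, averaged 330, 435 and 255 in LPS lungs and 81.5, 98.8 and 93.0 in PBS lungs. Its transcript is 99.4% identical to Psme2 over 794 aligned bases, so reads of the pair cannot be assigned with certainty.

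**Figure D1:**
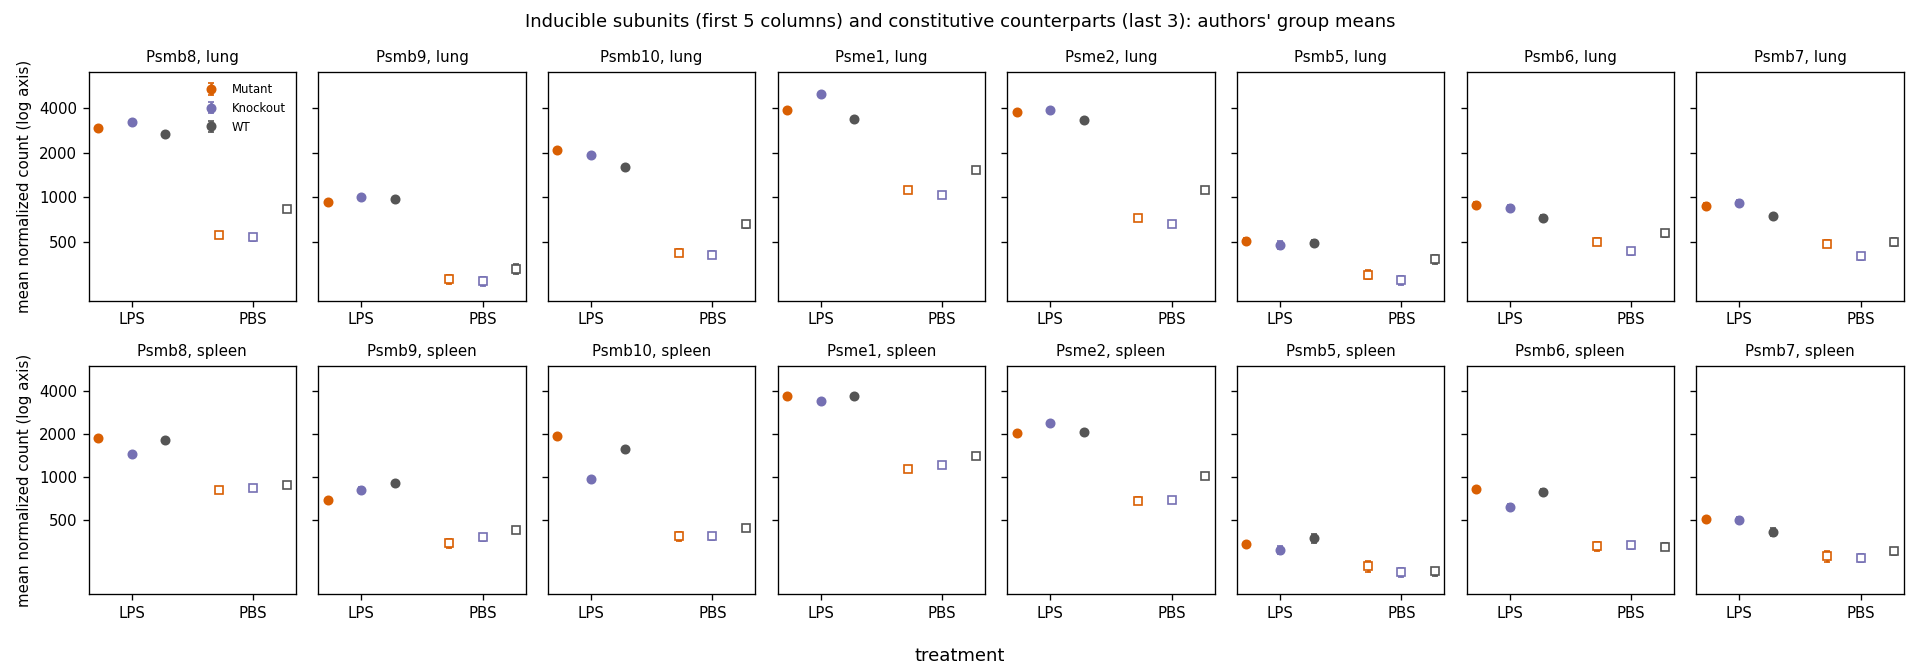
Authors' mean normalised counts (log axis) of the 5 inducible subunits and their 3 constitutive counterparts in lung (top row) and spleen (bottom row), with LPS groups (filled circles) left of PBS groups (open squares) and genotypes by colour; bars are 95% intervals of counting error, mostly smaller than the symbols, and are not drawn for mutant LPS spleen. In lung, Psmb8, Psmb10, Psme1 and Psme2 have their highest PBS mean in wild type; in spleen, Psmb10 is at 962 in knockout LPS against 1570 in wild type LPS.

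The catalytic counterparts Psmb5, Psmb6 and Psmb7 were higher with LPS in lung by less. Psmb5 averaged 507, 477 and 492 in LPS lungs of mutant, knockout and wild type mice and 300.0, 274 and 381 in PBS lungs. Psmb6 averaged 891, 847 and 725 in LPS lungs and 502, 431 and 572 in PBS lungs. Psmb7 averaged 874, 913 and 742 in LPS lungs and 485, 400.0 and 496 in PBS lungs, and its 2.28-fold ratio in knockout lungs was the only one of these 9 at or above 2-fold.

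Each pair lay further to the inducible gene in LPS than in PBS lungs of every genotype. The ratio of Psmb8 to Psmb5 means was 5.80, 6.77 and 5.49 in mutant, knockout and wild type LPS lungs, against 1.86, 1.96 and 2.20 in PBS lungs. For Psmb9 to Psmb6 it was 1.04, 1.18 and 1.34 under LPS against 0.558, 0.631 and 0.575 under PBS. For Psmb10 to Psmb7 it was 2.40, 2.11 and 2.16 under LPS against 0.872, 1.02 and 1.32 under PBS. Each pair ratio was thus 1.63 to 3.46 times as large under LPS; transcript lengths cancel in this change, but the ratios themselves are not per length. Per kilobase of exon, Psmb8 was at 1.03, 1.08 and 1.21 times Psmb5 in PBS lungs and at 3.20, 3.74 and 3.03 times it in LPS lungs.

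In spleen the resting balance already lay further to the inducible side for every pair and genotype. The gap was smallest for Psmb10 to Psmb7 in wild type, at 1.46 in PBS spleens and 1.32 in PBS lungs. Counting error alone gave these 2 ratios standard errors of 0.054 and 0.056. In PBS spleens Psmb8 to Psmb5 stood at 3.44, 3.90 and 4.02 in mutant, knockout and wild type, which is 1.83 to 1.99 times the lung value. LPS spleens had 5.58, 4.66 and 4.89, or 1.62 times the PBS value in mutant, 1.19 times in knockout and 1.22 times in wild type spleens. Psmb9 to Psmb6 showed no common direction in spleen: the ratio was 0.835, 1.33 and 1.15 under LPS and 1.05, 1.14 and 1.32 under PBS. Psmb10 to Psmb7 was the one pair with a large change, at 3.83 and 3.82 in mutant and wild type LPS spleens against 1.39 and 1.46 in their PBS spleens, while the knockout had 1.92 under LPS against 1.42 under PBS. The lung and spleen tables were scaled separately, so only ratios within a table are set side by side here.

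**Figure D2:**
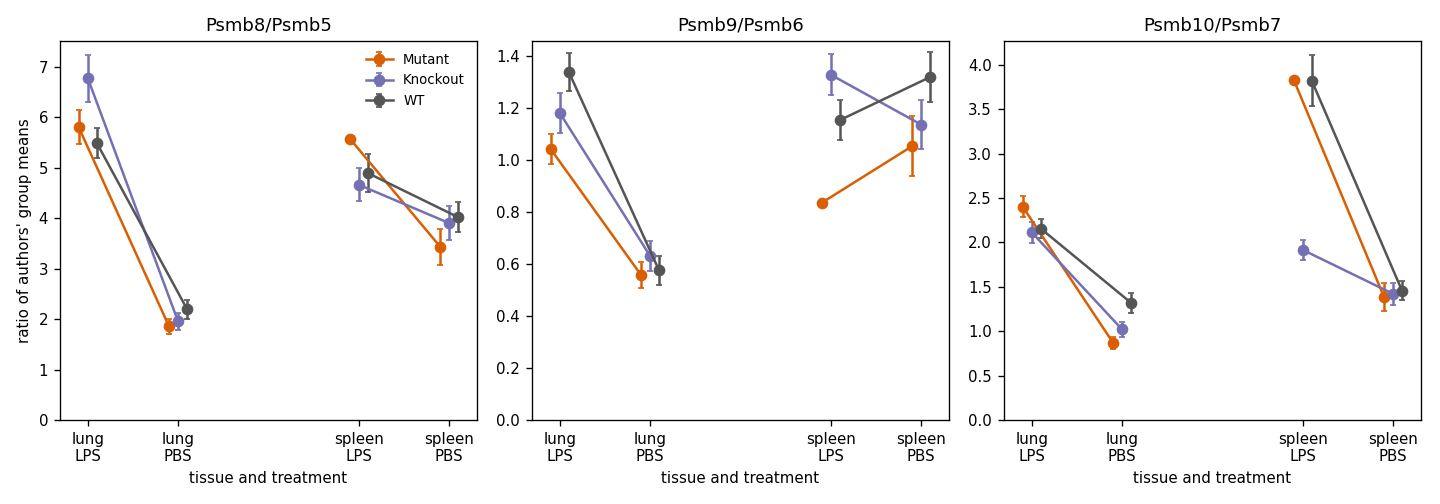
Ratio of the authors' group means of each inducible catalytic subunit to its constitutive counterpart, with LPS left of PBS in each tissue and a line joining the groups of a genotype; bars are 95% intervals of counting error and are missing for mutant LPS spleen. In lung all 9 lines are higher at LPS; in spleen Psmb9/Psmb6 runs both ways, and Psmb10/Psmb7 in knockout LPS spleen is 1.92 against 3.82 in wild type LPS spleen.

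The inducible genes themselves were higher with LPS in spleen as in lung, by smaller ratios except for Psmb10 in mutant and wild type and Psme1 in wild type. Psmb10 averaged 1950, 962 and 1570 in LPS spleens of mutant, knockout and wild type mice and 384, 384 and 438 in PBS spleens. The PBS groups were close together, while the knockout LPS mean was the lowest of the LPS means, giving log2 ratios of 2.34, 1.32 and 1.84. Psme1 averaged 3720, 3390 and 3710 in LPS spleens and 1130, 1210 and 1410 in PBS spleens. Psme2 averaged 2030, 2390 and 2080 in LPS spleens and 683, 692 and 1020 in PBS spleens. As in lung, the PBS means of both PA28 chains were highest in wild type.

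Psmb8 averaged 1890, 1440 and 1810 in LPS spleens of mutant, knockout and wild type mice and 811, 835 and 872 in PBS spleens. Its knockout ratio of 1.72-fold was the only one of an inducible gene below 2-fold in either tissue. Psmb9 averaged 688, 816 and 900.0 in LPS spleens and 342, 377 and 427 in PBS spleens, 2.01-, 2.16- and 2.11-fold. Psme2b averaged 198, 321 and 276 in LPS spleens and 81.4, 86.5 and 112 in PBS spleens.

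Set against the 31 constitutive subunits, the inducible genes lay higher in lung, with 1 overlap in wild type, and mixed with them in spleen. In mutant and knockout lungs all 5 inducible ratios lay above the highest constitutive one, Psma5 at 1.39 and Psma6 at 1.65 on the log2 scale. In wild type lungs 4 of 5 did so, and Psme1 at 1.14 lay below Psma5 at 1.22. In spleen 3, 2 and 1 of the 5 lay above the highest constitutive subunit in mutant, knockout and wild type, and 11, 16 and 7 constitutive subunits lay above the lowest inducible one. The median inducible ratio exceeded the median constitutive ratio by 1.49, 1.42 and 1.03 in mutant, knockout and wild type lungs, and by 0.70, 0.44 and 0.36 in the spleens. This distance in spleen depended on which subunits were taken as constitutive: with 19S subunits alone it was 0.62 in wild type.

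The constitutive subunits were nonetheless mostly higher with LPS. All 31 had a ratio above 1 in lungs of every genotype, and 29 did so in spleens of every genotype, with Psma1 at 433 in LPS against 487 in PBS and Psmc6 at 304 in LPS against 306 in PBS the exceptions, both in wild type. Their median log2 ratio was 0.82, 0.85 and 0.53 in mutant, knockout and wild type lungs and 0.87, 0.89 and 0.71 in the spleens. Counting error gave the ratio of a single subunit a standard error of 0.028 to 0.084 over both tissues, mutant spleen not included. Over all genes kept, the median was between -0.03 and 0.02 in the 6 tissue and genotype sets, and 48.3% of genes lay above 0 in wild type lung.

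Counting members of every role, 16, 19 and 8 were at least 2-fold higher with LPS in mutant, knockout and wild type lungs. Among all genes kept the shares at least 2-fold higher were 15.5%, 16.9% and 13.9% in these lungs. In spleen the member counts were 20, 19 and 16 of 49 or 50 kept, and the shares of all genes 15.3%, 16.6% and 13.5%. No member was at least 2-fold lower in lung, where 16%, 17.7% and 14.3% of all genes were. In spleen, where the shares of all genes at least 2-fold lower were 16.7%, 18.7% and 14.8%, the only such member was Psma8, the testis alpha subunit, at 3.02 in LPS and 10.5 in PBS wild type spleens, close to the limit of detection.

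**Figure D3:**
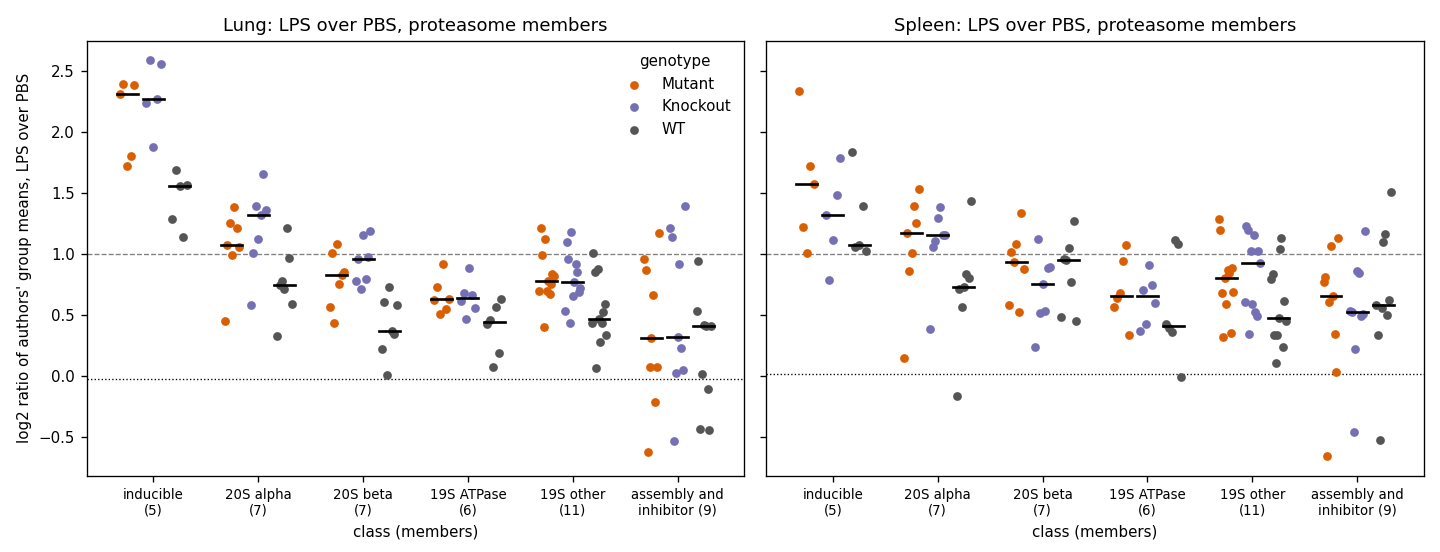
Log2 ratio of authors' group means, LPS over PBS, for each member (points) by class and genotype, in lung (left) and spleen (right); black bars are class medians, the dashed line is 2-fold and the dotted line the wild type median over all genes. In lung the inducible medians are 2.31, 2.27 and 1.56 in mutant, knockout and wild type; the inducible points lie above all constitutive ones in mutant and knockout, but in wild type Psme1 at 1.14 is below Psma5 at 1.22. In spleen, with medians of 1.57, 1.32 and 1.07, they overlap the constitutive points in every genotype.

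Within the 20S core the alpha ring subunits had larger ratios than the beta subunits in lung, with medians of 1.08, 1.32 and 0.74 against 0.83, 0.96 and 0.37 in mutant, knockout and wild type. In spleen the alpha medians were 1.17, 1.15 and 0.73 against beta medians of 0.93, 0.75 and 0.95, so the order was the opposite in wild type spleens. Psma5 had the largest wild type ratio of any constitutive subunit in lung. It averaged 1120, 997 and 1010 in LPS lungs and 427, 399 and 434 in PBS lungs, with little difference between genotypes. Psma6 averaged 1550, 1710 and 1420 in LPS lungs and 667, 543 and 725 in PBS lungs. Psma3, Psma4, Psma2 and Psma7 reached 2-fold in knockout lungs, with log2 ratios of 1.39, 1.13, 1.01 and 1.36. In mutant lungs Psma3, Psma2 and Psma7 also did so, at 1.26, 1.08 and 1.06, and Psma4 was at 0.99. None did in wild type lungs, where they lay between 0.59 and 0.78. Of the beta subunits Psmb4 and Psmb2 reached 2-fold in mutant lungs, at 1.08 and 1.01. In knockout lungs Psmb7 and Psmb4 did so, at 1.19 and 1.15, and Psmb2 was at 0.96. Psmb3 was at 0.01 in wild type lungs, the lowest constitutive ratio there, with 741, 886 and 663 in the LPS and 548, 542 and 659 in the PBS groups of mutant, knockout and wild type.

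In mutant and wild type spleens the constitutive subunit with the largest ratio was Psma7, which averaged 1270, 1090 and 1250 in LPS spleens of mutant, knockout and wild type mice and 439, 490 and 461 in PBS spleens. It was the one constitutive subunit at least 2-fold higher in all 3 genotypes there, although in knockout spleens its log2 ratio of 1.15 lay below those of Psma5 at 1.39, Psma4 at 1.30 and Psma6 at 1.16. Psma5 averaged 734, 775 and 647 in LPS spleens and 278, 296 and 363 in PBS spleens, so that wild type, with the highest PBS mean, had the smallest log2 ratio of 0.83. Psmb6, the constitutive caspase-like subunit, averaged 824, 615 and 781 in LPS spleens and 325, 332 and 324 in PBS spleens, and its wild type log2 ratio of 1.27 exceeded the 1.07 of its inducible counterpart Psmb9. Psmb5 averaged 339, 309 and 370 in LPS spleens and 236, 214 and 217 in PBS spleens. Psmb7 averaged 509, 502 and 411 in LPS spleens and 277, 270 and 301 in PBS spleens. Psmb4 and Psmb2 had log2 ratios between 0.75 and 1.12 in the 3 genotypes.

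The 19S cap had smaller ratios than the core in all 6 tissue and genotype sets. Its median log2 ratio over 17 subunits was 0.72, 0.69 and 0.46 in mutant, knockout and wild type lungs, against 1.00, 1.07 and 0.60 over the 14 constitutive 20S subunits. None of the 6 ATPases reached 2-fold in lung; Psmc4 came closest in mutant and knockout, at 0.92 and 0.88, and Psmc6 in wild type, at 0.63, where Psmc4 was at 0.57. The non-ATPase subunit Psmd11, a lid scaffold, averaged 1090, 1040 and 987 in LPS lungs and 469, 484 and 490 in PBS lungs, and with Psma5 was one of 2 constitutive subunits at least 2-fold higher in lungs of all genotypes. Psmd14, the deubiquitinase of the lid, followed with 702, 652 and 602 in LPS and 322, 287 and 327 in PBS lungs. Psmd13 and the ATPase Psmc3 were the least different in wild type lungs among cap subunits, at 0.06 and 0.07.

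In spleens Psmc4 and Psmc5 reached 2-fold in wild type, at 1.11 and 1.08, as did Psmd4, a ubiquitin receptor, and Psmd3, at 1.13 and 1.04. Psmd4 averaged 1110, 818 and 1140 in LPS spleens and 617, 569 and 520 in PBS spleens, so the knockout had the lowest LPS mean. Psmd12 ran the other way, at 396, 607 and 405 in LPS spleens and 247, 264 and 321 in PBS spleens, with the knockout highest under LPS. Psmd1, a scaffold of the base, had its highest LPS mean in the mutant, at 1770, 1100 and 1230 in LPS spleens against 726, 722 and 710 in PBS spleens. Psmd11, Psmd14 and Psmd7 had log2 ratios of 1.23, 1.03 and 1.02 in knockout spleens and 0.84, 0.33 and 0.62 in wild type spleens.

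The order of constitutive subunits in one tissue said little about their order in the other. Across the 31 constitutive subunits the wild type lung and spleen ratios had a Pearson r of 0.0807 and a Spearman rho of 0.0391, against 0.429 and 0.303 over all 49 members kept in both. These are correlations across genes that share the same libraries within a tissue, given as a description.

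Pomp, the chaperone that matures the core and is itself consumed by it, averaged 1420, 1380 and 1100 in LPS lungs and 732, 594 and 761 in PBS lungs. In spleen it averaged 772, 777 and 791 under LPS and 453, 536 and 529 under PBS. Its log2 ratios of 0.96, 1.21 and 0.53 in lung and 0.77, 0.53 and 0.58 in spleen lay within the range of the constitutive subunits. Psmg4, a chaperone of alpha ring assembly, averaged 71.6, 85.6 and 62.9 in LPS lungs and 31.3, 31.9 and 47.1 in PBS lungs. In spleen it had the largest wild type ratio outside the inducible group, with 141, 111 and 168 under LPS against 63.9, 48.1 and 58.4 under PBS. Psmg1, another such chaperone, and Psmf1, the PI31 inhibitor, were at 1.16 and 1.10 in wild type spleens but at 0.41 and 0.42 in wild type lungs. Psmd10 (gankyrin), a chaperone of the 19S base, reached 1.14 in knockout lungs and was 0.94 in wild type lungs.

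One assembly factor was lower with LPS in every genotype and both tissues. Psmd5, a chaperone that holds the base ATPase Psmc2 before assembly, averaged 238, 267 and 301 in LPS lungs and 367, 388 and 407 in PBS lungs. It averaged 123, 132 and 172 in LPS spleens and 195, 182 and 248 in PBS spleens. Its log2 ratio thus lay between -0.66 and -0.43 in all 6 sets, short of 2-fold. Psmg3 at -0.44 and Psmg2 at -0.11 were the other members below 0 in wild type lungs, and both were above 0 in wild type spleens, at 0.62 and 0.50. Psmd9, a further base chaperone, was at 0.01 in wild type lungs, with 258, 234 and 215 in LPS and 246, 230 and 213 in PBS groups.

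Psme3, the nuclear PA28 gamma chain, and Psme4, the PA200 activator, are activators outside the interferon-inducible set. Psme3 averaged 1210, 1310 and 1220 in LPS lungs and 734, 789 and 633 in PBS lungs, and 1820, 2110 and 1810 in LPS spleens and 883, 827 and 1180 in PBS spleens. Unlike Psme1 and Psme2, its lowest PBS mean in lung was that of wild type. Psme4 averaged 1220, 1270 and 1150 in LPS lungs and 851, 799 and 957 in PBS lungs. In spleen it averaged 582, 501 and 475 under LPS and 468, 448 and 468 under PBS, among the smallest ratios of the activators. Psmc3ip, the non-subunit caught by the naming rule, averaged 20.6 to 27.8 over all groups of both tissues except wild type PBS spleen, at 15.8.

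No member passed an adjusted p of 0.05 between genotypes in the authors' deposited table, in any of 12 comparisons. Under LPS in lung, the share of all genes called there was 0.0715% for mutant against wild type, 0.441% for knockout against wild type and 0.243% for knockout against mutant. Under PBS in lung the shares were 0.00524%, 0.0421% and 0.0523% in the same order. In spleen they were 0.00545%, 0.0241% and 0.177% under LPS, and 0%, 0.16% and 0% under PBS. With shares this low, a count of 0 among 50 members does not set the members apart from other genes. The authors' deposited tables hold DESeq2 adjusted p-values only, so a count at an unadjusted p under 0.05 could not be given, and in spleen knockout against wild type under PBS only 36 members had an adjusted p.

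The smallest adjusted p of a member in the authors' deposited table was 0.241 in lung, for Psme2b in knockout over wild type under LPS (log2 fold 0.75). In spleen it was 0.296, for Psmb10 in knockout over mutant under LPS, where the authors' deposited table has -0.95 (log2) and the Xist values of the groups, 33.7 and 4670, differ too. Against wild type under LPS, Psmb10 in knockout spleens stood at -0.66 (log2) in the authors' deposited table, adjusted p = 0.628. Neither passed the threshold, and no member was marked as a call by the authors.

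In PBS lungs all 5 inducible genes had lower means in both lines than in wild type. The authors' deposited table gave mutant over wild type log2 folds of -0.56 for Psmb8, -0.21 for Psmb9, -0.59 for Psmb10, -0.44 for Psme1 and -0.61 for Psme2, each with an adjusted p of 1. For knockout over wild type the authors' deposited table gave -0.61 for Psmb8, -0.26 for Psmb9, -0.64 for Psmb10, -0.54 for Psme1 and -0.74 for Psme2, again with an adjusted p of 1. The constitutive subunits had median folds of -0.11 and -0.22 in these comparisons in the authors' deposited table, and the median over all genes was between -0.01 and 0.01. Both comparisons share the 2 wild type PBS libraries, so they are not independent of each other.

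Under LPS the authors' deposited table put all 5 of these genes above wild type in knockout lungs and 4 of 5 in mutant lungs, with Psmb9 at -0.06 (log2) in the mutant. The median inducible log2 fold in the authors' deposited table was 0.19 for mutant and 0.25 for knockout over wild type, beside 0.17 and 0.12 for the constitutive subunits. The LPS ratio of the inducible genes was therefore larger in the lines than in wild type, by a median of 0.71 in mutant and 0.95 in knockout lungs on the log2 scale. For the constitutive subunits this difference was 0.28 and 0.37, and over all genes it was 0.02 and -0.02. It was not tested, since the deposited tables hold no interaction test and no single libraries. By log2 ratios of means, the inducible genes of mutant and knockout had medians of -0.59 and -0.64 against wild type under PBS, and of 0.19 and 0.26 under LPS.

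In spleen the inducible genes were also lower in PBS groups of the lines, with median log2 folds in the authors' deposited table of -0.30 for mutant and -0.17 for knockout over wild type. The largest of these was Psme2, at -0.53 and -0.51 in the authors' deposited table. The difference of the LPS ratio from wild type had a median of 0.32 in mutant and 0.04 in knockout spleens, and its sign was not shared by all 5: in knockout spleens it was -0.52 for Psmb10 and 0.76 for Psme2.

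**Figure D4:**
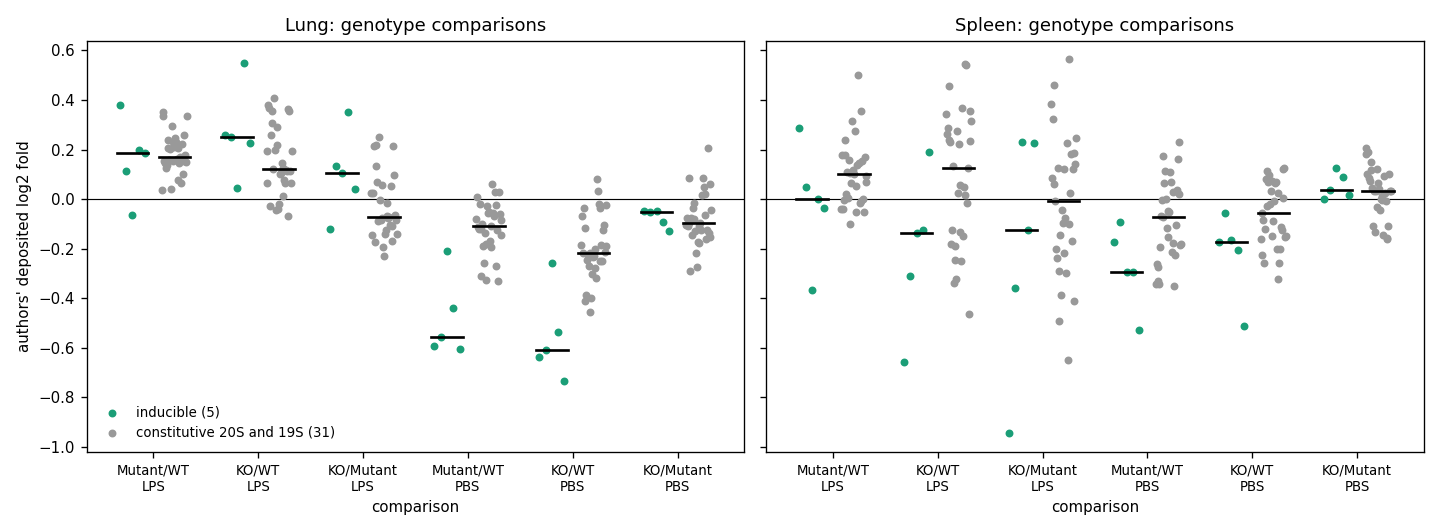
Log2 folds between genotypes from the authors' deposited tables for the 5 inducible and 31 constitutive subunits (points; black bars are medians), under LPS and PBS in lung (left) and spleen (right), with the first-named genotype on top of the fold; KO stands for knockout. No point passed an adjusted p of 0.05. The inducible medians in PBS lung are -0.56 and -0.61 over wild type, and Psmb10 in LPS spleen is -0.95 for knockout over mutant.

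Interferon-stimulated and antigen presentation genes were higher with LPS too. The genes were listed by pathway, and genes with the 2 largest and the smallest wild type ratios of a list are named, with the exceptions given under the processing. Of the 13 MHC class I pathway genes, 9, 10 and 8 were at least 2-fold higher with LPS in mutant, knockout and wild type lungs. The shares of all genes kept were 15.5%, 16.9% and 13.9% there. Nlrc5, the transactivator of MHC class I genes, averaged 4950, 4720 and 4770 in LPS lungs and 301, 309 and 544 in PBS lungs. Tap1, which shares the Psmb9 promoter, averaged 7100, 6690 and 5920 in LPS lungs and 571, 625 and 715 in PBS lungs, a larger ratio than that of Psmb9 in every genotype. Pdia3, a chaperone of the peptide-loading complex, was at -0.02 in wild type lungs. In spleens 4, 8 and 5 of the 13 were at least 2-fold higher, beside 15.3%, 16.6% and 13.5% of all genes kept. Nlrc5 at 1.98 and Tap1 at 1.92 led in wild type spleens, with the chaperone Calr lowest at -0.39. No gene of this list passed an adjusted p of 0.05 between genotypes in the authors' deposited table.

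Of the 9 genes of the interferon gamma axis, 7, 6 and 7 were at least 2-fold higher in mutant, knockout and wild type lungs. In the spleens 5, 6 and 4 were. The shares of all genes kept were 15.5%, 16.9% and 13.9% in lung and 15.3%, 16.6% and 13.5% in spleen. Ifng, the cytokine itself, averaged 744, 1320 and 973 in LPS lungs and 8.03, 12.7 and 8.62 in PBS lungs. In spleen it averaged 1380, 4690 and 1700 under LPS and 21.1, 13.0 and 11.8 under PBS, so the knockout LPS spleens with the lowest Psmb8 and Psmb10 means had the highest Ifng mean, as they had the highest Psme2 mean. Socs1, the feedback inhibitor of the receptor, had log2 ratios of 4.53 in wild type lungs and 3.24 in wild type spleens, while the receptor chains were lowest, with Ifngr2 at 0.37 in lung and Ifngr1 at -0.50 in spleen. Isg15, a ubiquitin-like protein induced by interferons, averaged 122, 121 and 353 in PBS lungs of mutant, knockout and wild type mice and 269, 180 and 631 in PBS spleens. Wild type thus had the highest resting mean in both tissues, as for Psmb8 and Psmb10. In PBS spleens Isg15 was higher in mutant than in knockout, the reverse of Psmb8, while Psmb10 had the same mean in both lines. The part of interferon-stimulated transcription in the resting proteasome values was not tested.

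The Nfe2l1 and Nfe2l2 axis, which sets constitutive subunit transcription through ARE sites, had 3, 2 and 3 of 7 genes at least 2-fold higher in mutant, knockout and wild type lungs. Its small Maf partners led, with Maff at 3.03 and Mafk at 1.84 in wild type lungs and 2.37 and 1.62 in wild type spleens; Ngly1, the glycanase that activates Nfe2l1, was lowest, at -0.03 and -1.06. Of 13 proteasome-associated genes 1, 2 and 1 reached 2-fold in these lungs, no larger a share than the 15.5%, 16.9% and 13.9% of all genes, led in wild type by Zfand5 at 1.04 and Txnl1 at 0.63, and the shuttle Ubqln2 was lowest at -0.28. In wild type spleens AI314180 (Ecm29) was at 0.93 and Ubqln2 at -0.65. Among ubiquitin genes, Ubd (FAT10), a ubiquitin-like tag for the proteasome, averaged 1040, 2170 and 991 in LPS lungs and 5.73, 3.09 and 3.63 in PBS lungs. Uba6, an E1 enzyme that activates ubiquitin, was lowest of this list in wild type spleens, at -0.20. Among peptidases that trim proteasome products, Lap3 was at 1.72, Tpp2 at 1.16 and Thop1 at -0.08 in wild type lungs, while in wild type spleens Thop1 was highest at 1.29, Lap3 at 0.78 and Npepps lowest at -0.26.

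**Figure D5:**
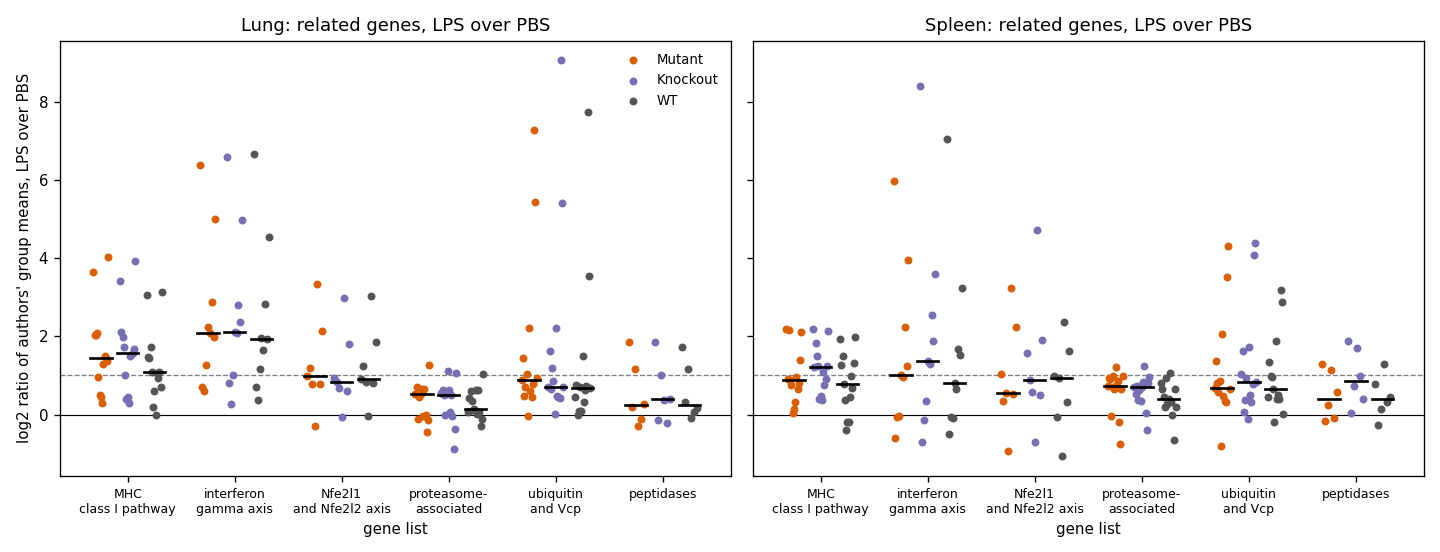
Log2 ratio of authors' group means, LPS over PBS, for genes of 6 related lists (points) by genotype, in lung (left) and spleen (right); black bars are list medians and the dashed line is 2-fold. In wild type lung the medians of the MHC class I and interferon gamma lists are 1.08 and 1.92, and the proteasome-associated list is at 0.14.

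Markers of blood cells differed between LPS and PBS groups in both tissues. The summed level of 7 neutrophil markers was 20200, 20700 and 19100 in LPS lungs of mutant, knockout and wild type mice, against 3020, 2440 and 2620 in PBS lungs, and 8 pan-leukocyte markers summed to 21200, 22600 and 20300 against 8370, 7890 and 8720. The labelled lung was matched by its 6 epithelial markers. Their sums were 125000, 126000 and 109000 in LPS lungs and 87400, 88700 and 126000 in PBS lungs. The sum was higher with LPS in both lines and lower with LPS in wild type. Wild type had the highest PBS sum, as it had the highest Psmb8 and Psmb10 means in PBS lungs. Nkx2-1 did not follow its sum, at 1590, 2070 and 1900 in PBS lungs. In spleens, 7 T cell markers summed to 1090, 881 and 1720 under LPS and 2830, 3020 and 2340 under PBS, and 6 B cell markers to 4450, 4050 and 7230 under LPS and 10600, 11200 and 8370 under PBS. The knockout LPS spleens thus had the lowest T and B cell marker sums of the LPS groups. They also had the lowest Psmb8, Psmb10 and Psme1 means, a middle Psmb9 mean, and the highest Psme2 and Psme2b means. Not every marker followed its sum: the B cell marker Ms4a1 was highest in knockout LPS spleens, at 496, against 307 in mutant and 440 in wild type LPS spleens. Neutrophil markers in spleen summed to 8570, 2250 and 3420 under LPS and 2010, 1860 and 3020 under PBS, and no marker in any of these lists was at 0. The part of cell composition in the proteasome ratios was not tested.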

How the data were processed

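The submitters' processing notes name STAR 2.5.3a, DESeq2, Bowtie2, bedtools and SAMtools with the mm10 build, and give no settings. Per the file headers, the deposited tables hold group means, a signal the authors made by dividing read counts by size factors, and for each genotype comparison the authors' log2 fold, an adjusted p-value and a call mark. The adjusted p-values and marks were read as a deposited score of the authors and were not recomputed. Single libraries and a test of LPS against PBS were not available in the files used, so the planned count fits were replaced by these values.

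Lines with broken cells were left out (6 of 19476 in lung, 5 of 18850 in spleen), and 1026 split spleen symbols were rejoined. The LPS ratio is log2 of (LPS mean + 1) over (PBS mean + 1). It was kept where either mean reached 10, which dropped Psma8 except in wild type spleen, and it understates low genes. Limits were 2-fold for LPS and an adjusted p under 0.05 between genotypes. Depth was estimated from the step that 1 read adds to low means (98% of low values whole within 0.5%). Size factors were 0.501 to 2.33 in lung and 0.521 to 2.51 in spleen. The step finder was tried on simulated data with a narrower range of size factors, so that trial does not cover the widest groups here. Standard errors from the estimated depth cover counting error only. Positions and exon lengths came from GENCODE M21. Python 3.11.15, pandas 2.3.3, NumPy 2.4.6 and SciPy 1.17.1 were used.

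Members, related lists and cell type markers were chosen with earlier results of these data known. The text names the inducible genes, their counterparts, Pomp, Psme3 and Psme4; the 3 highest and 3 lowest other members by wild type ratio in each tissue; members at least 2-fold changed in a genotype; and the 2 highest and the lowest gene of each related list, except 2 genes that are not reported here. Psmb3, Psmc3, Psmc6, Psmd9, Psmd13 and Psmc3ip were added after their values were seen. Alternatives were other pseudocounts, filters and fold limits, centring on the median gene, other constitutive sets, the authors' call limit and folds from group means.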

Additional observations from a re-analysis of the deposited data

How the results depend on the processing

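With a limit of 1.5-fold in place of 2-fold, 36, 38 and 21 members were higher with LPS in mutant, knockout and wild type lungs. In the spleens 37, 32 and 29 were. The share of all genes above this limit was not counted, so these member counts have no background beside them. The median distance of inducible from constitutive subunits moved with the subunits taken: against 20S subunits alone it was 1.31 in mutant lung, 1.20 in knockout lung and 0.56 in mutant spleen. Against 19S subunits alone it was 1.58 in mutant lung, 1.58 in knockout lung, and 0.88, 0.62 and 0.62 in mutant, knockout and wild type spleens. Against all other members it was 0.58 in knockout and 0.46 in wild type spleens. The other 130 values recomputed for the group results kept their direction and size within the limits set, as did 885 values for single members. None reversed. They used another pseudocount, filter, centring, call limit, constitutive set or source of the fold. Not all of them were free to move. Centring shifts both medians of a distance alike, and moves a single member only by the small median over all genes. The authors' call limit set no calls beside no marks. Leaving out single replicates was not run, since the files used hold group means. No paired analysis was possible because the labels give no replicate numbers shared between groups and the columns are group means. Depth sets counting errors of at most 0.084 (log2) for the constitutive subunits outside mutant spleen, while the spread between mice is unknown for every LPS ratio.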
